A study of Aedes aegypti with 20 samples.

Results

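Sex determination genes and genes of the male locus were followed in pedicels and heads of the yellow fever mosquito Aedes aegypti. The members were 4 gene IDs of the deposited table, taken with all of their transcripts: doublesex (AAEL009114, 10 transcripts), fruitless (AAEL024283, 24 transcripts), Nix (AAEL022912, 2 transcripts) and myo-sex (AAEL021838, 2 transcripts). They make up 4 of 19804 gene IDs and 38 of 34477 transcripts. The choice used gene identity and no measured value, but it was made with earlier results of these data known. The names belong to the definition of the set, since the table lists IDs only.

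RNA was sequenced from virgin males and non-blood fed females of the Liverpool strain. Pedicels of males, pedicels of females, heads of males and heads of females gave 5 libraries each. All were entrained for 2 days and frozen at zeitgeber time 12, and no other genotype, age or treatment is given in the labels. The pedicel is the antennal segment that holds the hearing organ. Tissue names here follow the sample titles, while the deposited columns are named brain for head libraries and JO for pedicel libraries.

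In insects, sex is set by a chain of regulators that ends in sex-specific splicing of doublesex and fruitless, which both encode transcription factors. Doublesex directs the form and physiology of male and female tissues, and fruitless is best known for directing male courtship in Drosophila. In Aedes aegypti the chain starts at a male locus carried by males alone: Nix, a gene of this locus, is the male-determining factor, and myo-sex, which is linked to the same locus, encodes a myosin heavy chain. No source used here says which transcripts of doublesex and fruitless carry male-type or female-type exons. Transcripts are therefore named by their suffix alone.

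Estimated counts per library summed to between 5059969 and 9404244. Levels are normalised read counts (CPM) relative to library totals scaled by the trimmed mean of M-values (TMM). The lowest TMM factor was that of male pedicel 4, at 0.49, against 0.82 to 1.31 in the other male pedicels. Female pedicels had factors of 0.65 to 1.03, all below those of heads, at 1.11 to 1.22. A low factor raises every CPM of its library. How much of the spread between pedicel libraries, or of the differences between tissues, comes from this scaling was not tested. Tests used edgeR's quasi-likelihood fit of all 20 libraries with Benjamini-Hochberg adjustment over the 11381 genes tested, and a difference was called at an adjusted p under 0.05. Log2 folds are male over female, or pedicel over head. Since no label states that a group's libraries are from different animals, the p-values reflect library-to-library spread only, and that may be technical. The RNA is from whole tissue, where fewer cells of a type and less RNA per cell cannot be told apart. Transcript lengths were not used here, so levels are compared between groups and not between genes. Where groups differ in the mix of a gene's transcripts, length can also enter their gene totals, and its part was not tested.

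2 pedicel libraries are singled out here from values outside the members, both after those values were seen. Of 7 genes limited to males in heads, AAEL022711 had 48.3 to 72.0 CPM in male pedicels, against 12.7 CPM in female pedicel 2 and 0.26 to 1.39 CPM in the other female pedicels. The list was split on female pedicel 2. AAEL020035 (192 CPM, others 1.28 to 12.1) and AAEL026407 (4.78 CPM, others 0 to 0.42) were also highest there among female pedicels. AAEL020035 varied from 1.01 to 370 CPM within male pedicels too. Against this, 3 of the 7 genes were at 0 there, and AAEL024981 was not highest there. The median of the list, 4.92% of the male head level, lay below the 8.79% of female pedicel 4. For male pedicel 2, a list of 50 genes that are steady in heads was used, chosen from 1771 candidates as those lowest in any pedicel. Their median stood at 36.6% of the head level in that library, against 4.34% to 5.64% in the other male pedicels, and was 34.1% to 67.8% in female pedicels. Since pedicel values chose these genes, the percentages are descriptions and carry no test. Results that rest on these libraries are given with and without them.

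Across the 4 members, Nix was higher in males in both tissues, and no gene total of fruitless or myo-sex was called between the sexes. Doublesex was called lower in male than in female pedicels, close to the threshold (edgeR adjusted p = 0.0466) and with overlap. That call was lost in 9 of 16 alternatives. In the head its log2 fold was -1.41, against -1.26 in the pedicel, and was not called (edgeR adjusted p = 0.115). The head groups did not overlap, as for 9.81% of all genes. In the pedicel, 2 members were called between the sexes, 1 higher and 1 lower in males, where 39.6% of all genes tested were called. In the head, 1 member was called, higher in males, where 7.86% of all genes were called. In the pedicel, set against the head, 3 of the 4 members were called in males, where 51% of all genes were called. In females 2 of 4 were called, where 35.4% of all genes were called. All of these members were higher in the pedicel. The interaction of sex and tissue was called for 0 of the 4 by edgeR, where 11.9% of all genes were called, with 0 members at an unadjusted p under 0.05 and 0 called by DESeq2. Since so large a part of all genes was called between the sexes in the pedicel and between the tissues, the counts of members in those comparisons are not read as a result about the members.

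**Figure D1:**
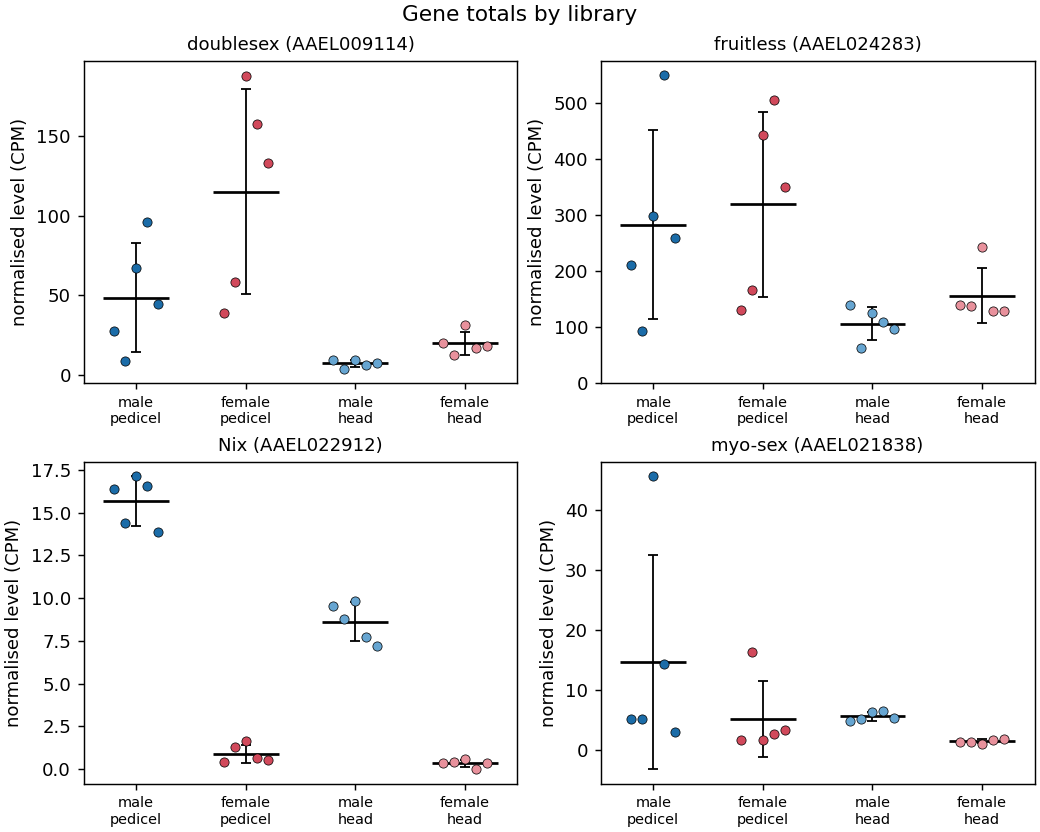
Level of each gene's summed transcripts (y axis, CPM) in every library of the 4 groups (x axis); points are libraries, horizontal lines are means and bars are ± SD (n = 5 libraries per group). Nix is the member whose male and female points separate in both tissues, and pedicel points of doublesex and fruitless scatter more widely than head points.

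Nix, the male-determining factor, had 16.4, 14.4, 17.1, 16.6 and 13.8 CPM in male pedicels, against 0.423, 1.29, 1.62, 0.667 and 0.510 CPM in female pedicels. In heads it had 9.56, 8.78, 9.82, 7.75 and 7.20 CPM in males, against 0.343, 0.387, 0.564, 0 and 0.382 CPM in females. Every male library lay above every female library in both tissues, with no overlap. The log2 fold of male over female was 4.12 in the pedicel (edgeR adjusted p = 3.07e-08, SE 0.33) and 4.61 in the head (edgeR adjusted p = 3.89e-08, SE 0.35). Groups without overlap were found for 20.6% of genes between the sexes in the pedicel and for 9.81% in the head.

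Nix also differed between tissues. It averaged 15.7 ± 1.46 CPM in male pedicels, against 8.62 ± 1.13 CPM in male heads (± SD of 5 libraries), and the lowest male pedicel lay above the highest male head. These are TMM-scaled levels, and whether the groups part without scaling was not tested. The log2 fold of pedicel over head in males was 0.86 (edgeR adjusted p = 0.00734, SE 0.25). Groups without overlap were found for 35.8% of genes between male tissues. In order of level the groups ran male pedicel, male head, female pedicel, female head, and among these neighbours the 2 female groups overlapped.

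The small female signal of Nix rested on 22 counts over the 5 female pedicels and 14 counts over the 5 female heads. The mean was 0.901 ± 0.524 CPM in female pedicels, against 0.335 ± 0.206 CPM in female heads (± SD of 5 libraries), a log2 fold of 1.35 (edgeR adjusted p = 0.0232, SE 0.44). Female pedicel 2 held 7 of the 22 counts, and female pedicel 3 held 7 more. Without female pedicel 2 the log2 fold of AAEL022912 was 1.16 and the call was lost (edgeR adjusted p = 0.0875). It was also lost without female pedicel 3 (edgeR adjusted p = 0.102) and without female head 4 (edgeR adjusted p = 0.0813).

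The transcripts of Nix split this signal. AAEL022912-RB had 15.8, 13.7, 14.3, 13.1 and 12.8 CPM in male pedicels, against 0, 1.29, 0.231, 0 and 0.0933 CPM in female pedicels. Heads had 8.35, 8.25, 8.03, 7.33 and 6.06 CPM in males and 0 counts in all 5 female libraries. The sexes did not overlap in either tissue, which held for 11.3% of all transcripts in the pedicel and 5.9% in the head. Among female pedicels, female pedicel 2 had the highest value. In the pedicel the log2 fold of AAEL022912-RB was 5.41 (SE 0.96, edgeR adjusted p = 0.00158 over the 19782 transcripts tested). In the head the males exceeded the females by at least 104-fold, against a floor of 3 counts over the female group (edgeR adjusted p = 6.46e-04).

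Between tissues, AAEL022912-RB averaged 13.9 ± 1.22 CPM in male pedicels, against 7.60 ± 0.949 CPM in male heads (± SD of 5 libraries), without overlap, as found for 23.1% of all transcripts between male tissues. Its log2 fold of 0.87 was not called in the transcript fit (edgeR adjusted p = 0.481, SE 0.77), but was called with DESeq2 (adjusted p = 3.33e-07) and when male libraries alone were fitted (edgeR adjusted p = 0.00496). In females the AAEL022912-RB counts summed to 8.4 in pedicels and 0 in heads, a ratio of at least 4.41, and the call (edgeR adjusted p = 0.0199) was lost without female pedicel 2 (edgeR adjusted p = 0.388).

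AAEL022912-RA was low in both sexes, with 1.71 ± 1.34 CPM in male and 0.579 ± 0.511 CPM in female pedicels. In heads it was 1.02 ± 0.555 CPM in males and 0.335 ± 0.206 CPM in females (± SD of 5 libraries). It was left out of the transcript test by the filter on low counts, and male and female libraries overlapped in both tissues. All 14 Nix counts of female heads, and 13.6 of the 22 counts of female pedicels, were assigned to it. In males AAEL022912-RB took 89.4% ± 7.68 of Nix counts in pedicels and 88.4% ± 5.73 in heads (± SD of 5 libraries). No female library reached the 10 counts set for a share.

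**Figure D2:**
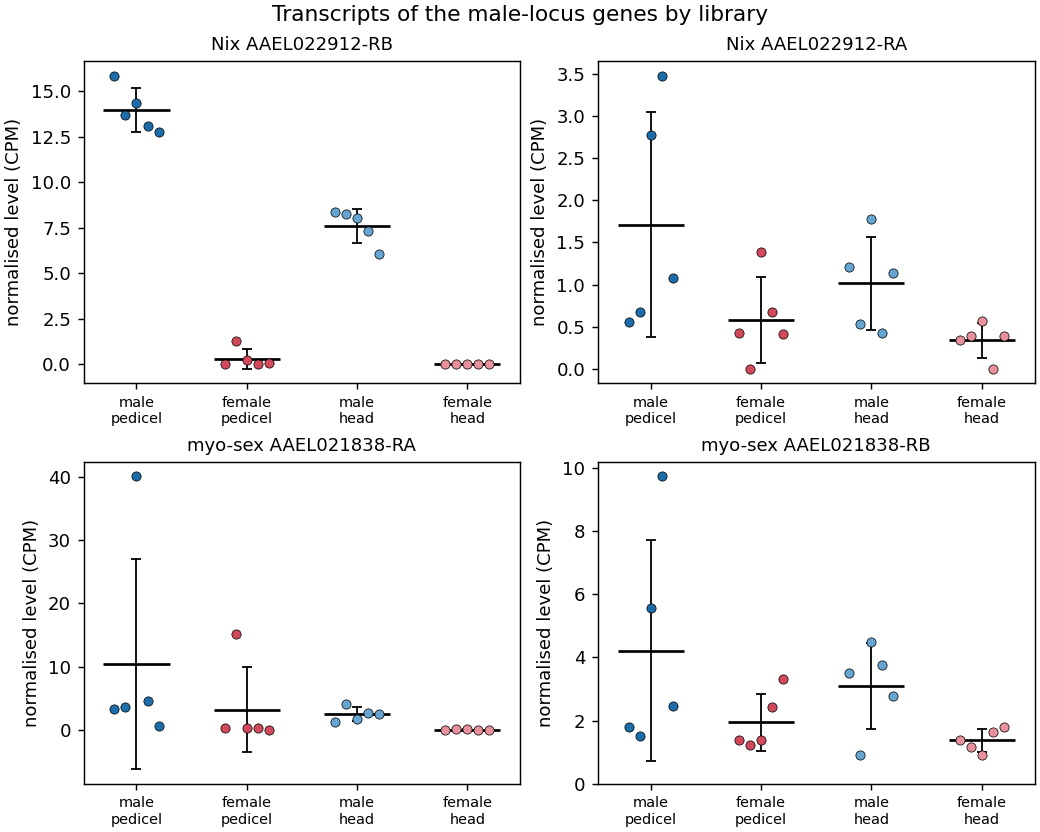
Levels (y axis, CPM) of both transcripts of Nix and of myo-sex in every library of the 4 groups (x axis); points are libraries, horizontal lines are means and bars are ± SD (n = 5 libraries per group). AAEL022912-RB and AAEL021838-RA are at or near 0 in female heads, and 1 female pedicel library is raised for both of these transcripts.

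Myo-sex, the myosin heavy chain gene, had 5.12, 5.10, 45.7, 14.4 and 3.04 CPM in male pedicels, against 1.69, 16.4, 1.62, 2.67 and 3.32 CPM in female pedicels. In heads the values were 4.78, 5.07, 6.27, 6.41 and 5.27 CPM in males, against 1.37, 1.29, 1.01, 1.64 and 1.78 CPM in females. The head groups did not overlap, whereas the pedicel groups did: male pedicel 3 stood far above the other males, and female pedicel 2 stood above 4 of the 5 males. Male over female, the log2 fold was 1.47 in the pedicel (edgeR adjusted p = 0.0906, SE 0.67) and 1.96 in the head (edgeR adjusted p = 0.124, SE 0.74).

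The sex difference of myo-sex depended on single libraries and on the fit. Without female pedicel 2 the log2 fold of AAEL021838 in the pedicel was 2.65 (edgeR adjusted p = 0.00421), and without male pedicel 3 it was 0.34 (edgeR adjusted p = 0.677). It also passed without male pedicel 2 (edgeR adjusted p = 0.0498) and without male pedicel 5 (edgeR adjusted p = 0.0481). In the head, where all 5 males lay above all 5 females, a fit of the head libraries alone gave 1.92 (edgeR adjusted p = 5.43e-05) and DESeq2 gave 1.97 (adjusted p = 0.0382). By tissue the log2 fold of pedicel over head was 1.37 in males (edgeR adjusted p = 0.0882, SE 0.65) and 1.86 in females (edgeR adjusted p = 0.0615, SE 0.75), and neither was called. Without male pedicel 3 the fold in males was 0.23, and without male pedicel 5 it was 1.64 and passed (edgeR adjusted p = 0.0405). Without female pedicel 2 the fold in females was 0.68, and it passed without female pedicel 1 (edgeR adjusted p = 0.0414) or female pedicel 3 (edgeR adjusted p = 0.0461). Its means followed the order of Nix, and each group overlapped its neighbour.

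The transcript AAEL021838-RA had 3.32, 3.58, 40.1, 4.59 and 0.574 CPM in male pedicels, against 0.300, 15.1, 0.231, 0.223 and 0 CPM in female pedicels. Head values were 1.28, 4.14, 1.77, 2.66 and 2.48 CPM in males, against 0, 0.129, 0.113, 0 and 0 CPM in females. In both tissues females were near 0 apart from female pedicel 2, which held 82.3 of the 86.4 counts of its group. In heads 96 counts in males stood against 2 counts in females, 50.02 times as much after scaling (95% counting interval 13.5 to 419, counting error only), and the groups did not overlap. In pedicels the log2 fold was 1.71 (edgeR adjusted p = 0.47, SE 1.31), but 5.65 without female pedicel 2 (edgeR adjusted p = 0.00693) and -0.09 without male pedicel 3 (edgeR adjusted p = 0.987). The transcript fit did not call it in heads (edgeR adjusted p = 0.119), and DESeq2 did (adjusted p = 0.00929). Between female tissues AAEL021838-RA was called higher in the pedicel (edgeR adjusted p = 0.0296), a call lost without female pedicel 2 (log2 fold 1.67, edgeR adjusted p = 0.443) and also without any 1 of the 5 female heads (edgeR adjusted p = 0.0506 to 0.0698).

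AAEL021838-RB was seen in both sexes. It averaged 4.22 ± 3.49 CPM in male and 1.95 ± 0.902 CPM in female pedicels. In heads it was 3.09 ± 1.36 CPM in males and 1.37 ± 0.355 CPM in females (± SD of 5 libraries). The groups overlapped, and neither sex difference was called (edgeR adjusted p = 0.204 in the pedicel and 0.424 in the head). Of the myo-sex counts, AAEL021838-RA held 18.9% to 87.8% in male pedicels and 26.9% to 81.8% in male heads. Among female heads with at least 10 counts it held 0% to 10%. In female pedicel 2 it held 92.5% (Wilson 95% interval 84.6% to 96.1%), against 0% to 17.7% in the 3 other female pedicels with at least 10 counts.

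Outside female pedicel 2, the female counts of the male-locus genes lay mostly in AAEL022912-RA and AAEL021838-RB. No member transcript had the same values in all libraries as a transcript of another gene ID. Whether reads of related genes elsewhere in the genome reached these 2 transcripts was not tested. Across the 7 male-limited genes, 4 had a count in female pedicel 2, and 4 to 6 in each other female pedicel, with a median level of 4.92% of male heads in female pedicel 2 and 0.499% to 8.79% in the others. AAEL022711, AAEL020035 and AAEL026407 were higher in female pedicel 2 than in any other female pedicel, and the rest of the list was not.

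Doublesex, the transcription factor gene at the end of the chain, had 27.4, 8.64, 67.0, 96.0 and 44.5 CPM in male pedicels, against 38.9, 58.3, 188, 158 and 133 CPM in female pedicels. In heads it stood at 9.31, 4.22, 9.54, 6.55 and 7.73 CPM in males, against 20.5, 12.8, 31.3, 16.8 and 18.2 CPM in females. Every male head lay below every female head, whereas male and female pedicels overlapped. The highest male pedicel was male pedicel 4, the library with the lowest TMM factor. The fold of male over female was on the log2 scale -1.26 in the pedicel (edgeR adjusted p = 0.0466, SE 0.49) and -1.41 in the head (edgeR adjusted p = 0.115, SE 0.52).

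Only the pedicel difference of doublesex was called, and it stood close to the threshold. The interaction was 0.15 (edgeR adjusted p = 0.929, SE 0.69), so no difference between the tissues in this sex effect was shown. In a fit of the head libraries alone the log2 fold of AAEL009114 in the head was -1.45 (edgeR adjusted p = 0.00256), and DESeq2 gave -1.41 (adjusted p = 0.0381). With pedicel libraries alone fitted, the pedicel fold was -1.26 (edgeR adjusted p = 0.143). The lowest male pedicel was male pedicel 2, the library with the highest level of the 50 head transcripts among males. Without it the log2 fold was -0.99 (edgeR adjusted p = 0.0630). The call was also lost without male pedicel 1 or 5, or female pedicel 3, 4 or 5, with edgeR adjusted p-values of 0.0798 to 0.117.

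By tissue doublesex was higher in the pedicel in both sexes. It averaged 48.7 ± 34.1 CPM in male pedicels, against 7.47 ± 2.19 CPM in male heads. For females it was 115 ± 64.1 CPM in pedicels, against 19.9 ± 6.96 CPM in heads (± SD of 5 libraries). Pedicel over head, the log2 fold was 2.67 in males (edgeR adjusted p = 3.34e-04, SE 0.53) and 2.52 in females (edgeR adjusted p = 9.14e-04, SE 0.51). Female pedicels and heads did not overlap, which held for 25.5% of all genes, and in males only male pedicel 2 fell within the range of the heads. The order of the levels was female pedicel, male pedicel, female head and male head, and only the step between the 2 head groups was free of overlap.

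The 50 head transcripts, which were chosen for low pedicel values, had medians of 4.34% to 36.6% in male pedicels and 34.1% to 67.8% in female pedicels, as percentages of their head level. Their part in the pedicel results of doublesex and fruitless was not tested.

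Fruitless, the second transcription factor gene, had 211, 92.3, 297, 549.6 and 259 CPM in male pedicels, against 130.2, 166, 441, 505 and 349 CPM in female pedicels. Heads gave 139, 63.5, 124, 108 and 95.7 CPM in males, against 139.9, 138, 243, 129 and 129 CPM in females. The sexes overlapped in both tissues. Between the sexes the log2 fold, male over female, was -0.18 in the pedicel (edgeR adjusted p = 0.754, SE 0.40) and -0.55 in the head (edgeR adjusted p = 0.468, SE 0.40).

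Between tissues fruitless was called in males, with a log2 fold of pedicel over head of 1.40 (edgeR adjusted p = 0.00752, SE 0.41). In females it was 1.03 and just missed the threshold (edgeR adjusted p = 0.0536, SE 0.40), and DESeq2 and a fit of the female libraries alone called it. The interaction was 0.37 (edgeR adjusted p = 0.735, SE 0.57). In pedicels it averaged 282 ± 168 CPM in males, against 318 ± 165 CPM in females, and in heads 106 ± 29.1 CPM in males, against 155 ± 49.0 CPM in females (± SD of 5 libraries). The groups thus followed the order of doublesex, and each overlapped its neighbour. The tissue call in females appeared without female pedicel 1 (edgeR adjusted p = 0.0188 for AAEL024283), without female pedicel 2 (0.0367) and without female head 3 (0.0359).

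**Figure D3:**
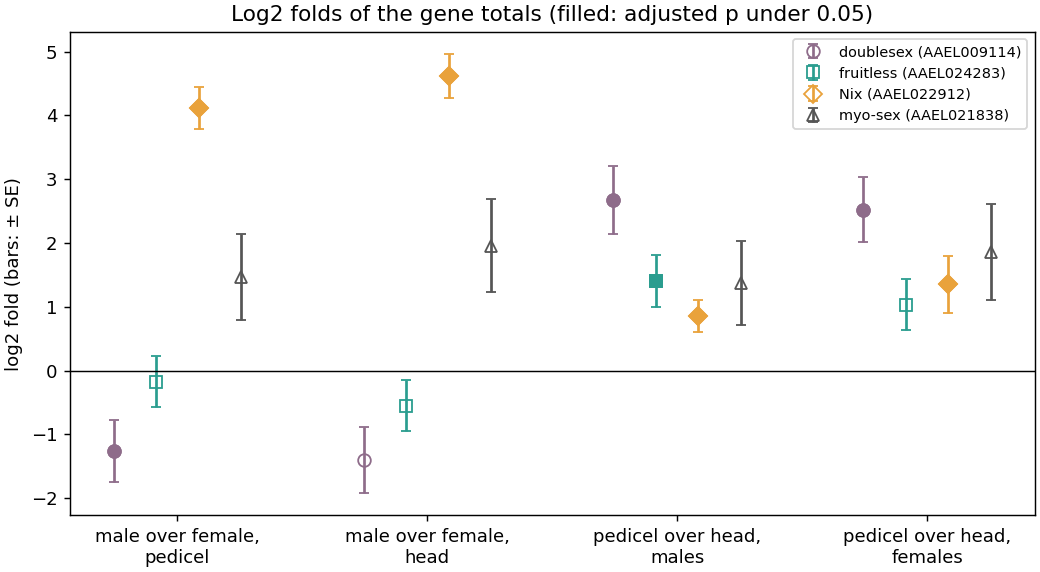
Log2 folds (y axis) of the gene totals of the 4 members in the 4 simple comparisons (x axis), from edgeR's fit of all 20 libraries; bars are ± SE and filled symbols have an adjusted p under 0.05. Nix has the highest folds between the sexes, doublesex and fruitless lie below 0 there, and all 4 members lie above 0 in pedicel over head.

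Although the gene total of fruitless was not called between the sexes, the shares of 1 of its transcripts, AAEL024283-RN, parted them in both tissues. This transcript was picked from the 18 member transcripts tested for usage, and its pedicel levels overlapped. Of the 24 fruitless transcripts 10 passed the filter on low counts, and 3 (AAEL024283-RJ, AAEL024283-RS and AAEL024283-RV) were at 0 in every library. AAEL024283-RN took 1.01%, 0.25%, 7.60%, 7.69% and 1.29% of fruitless counts in male pedicels, against 23.6%, 24.8%, 23.7%, 21.8% and 22.2% in female pedicels. In heads it took 0.21%, 2.01%, 0%, 0.31% and 0% in males, against 11.96%, 17.6%, 16.4%, 16.2% and 15.3% in females. Male libraries lay below female libraries without overlap in either tissue, although male pedicels 3 and 4 were clearly above the other males. These shares are of counts, not of molecules, since they are not corrected for transcript length.

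The shares of AAEL024283-RN averaged 3.57% ± 3.74 in male and 23.2% ± 1.22 in female pedicels. Head shares averaged 0.507% ± 0.851 in males and 15.5% ± 2.13 in females (± SD of 5 libraries). A two-sided exact permutation test of the shares gave p = 0.00794 between the sexes in each tissue, the smallest value that 5 against 5 libraries can give. Adjusted over all transcripts tested, these became 0.366 in the pedicel and 0.364 in the head, and this test called 0 transcripts of any gene there. As no p can be smaller, this test can call a transcript only if a large part of all transcripts reach that value. Its lack of calls therefore decides nothing about AAEL024283-RN. Of 11569 and 11568 transcripts, 1012 and 1032 were at an unadjusted p under 0.05. How many of all transcripts had shares without overlap was not counted, for this or any other comparison of shares. By edgeR's diffSpliceDGE, which sets a transcript against the others of its gene, the log2 difference in usage was -3.71 in the head (SE 0.69, adjusted p = 8.05e-04) and -1.52 in the pedicel (SE 0.58, adjusted p = 0.351).

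Calls of transcript usage were rare, and the tools differed on AAEL024283-RN. In the head diffSpliceDGE called 1 of the 18 member transcripts tested, where 0.103% of all transcripts were called, and in the pedicel 0 of 18, where 0.188% were, with 2 at an unadjusted p under 0.05. Between female tissues it called 0 of 18 (0.29% of all transcripts), with 5 at an unadjusted p under 0.05. For the interaction it called 0 of 18 (0.128%), with 4 at an unadjusted p under 0.05. On simulated data diffSpliceDGE made more false calls than its threshold allows. A test of each transcript against the rest of its gene with a spread of its own, added after the data were seen, gave an adjusted p of 0.0699 in the head and 0.240 in the pedicel (edgeR, Benjamini-Hochberg), and neither passed. This test called 0.00854% of all transcripts in the head and 0.29% in the pedicel, and 0 of the 18 member transcripts there, with 5 and 3 at an unadjusted p under 0.05. Between female tissues (0.145% of all transcripts called) and for the interaction (0.0171%) it called 0 of 18 as well, with 5 and 1 at an unadjusted p under 0.05.

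As a level, AAEL024283-RN had 2.14, 0.23, 22.6, 42.3 and 3.36 CPM in male pedicels, against 30.8, 41.2, 105, 110.1 and 77.4 CPM in female pedicels. In heads it had 0.297, 1.28, 0, 0.340 and 0 CPM in males, against 16.7, 24.2, 39.7, 20.8 and 19.6 CPM in females. The head groups lay far apart, and in the pedicel only male pedicel 4 reached the lower end of the female range. The CPM of that library is raised by its low TMM factor, which does not enter the shares. Male over female, the log2 fold was -5.99 in the head (edgeR adjusted p = 0.00799, SE 1.21) and -2.39 in the pedicel (edgeR adjusted p = 0.117, SE 0.97). The head fold sets 12.5 counts over the 5 male heads against 1018.1 over the female heads, so its size is imprecise. Without male pedicel 4 the pedicel fold of AAEL024283-RN was -3.39 and was called (edgeR adjusted p = 0.0372). The interaction was 3.60 (edgeR adjusted p = 0.236, SE 1.44), so the sex effect was not shown to differ between tissues.

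In males AAEL024283-RN was higher in pedicels than in heads, with a log2 fold of 5.19 (edgeR adjusted p = 0.00322, SE 1.18). It had 12.5 counts over the 5 male heads, against 313.5 over the male pedicels, so the size of this fold is imprecise. Its usage in males was called by diffSpliceDGE (log2 difference 2.58, SE 0.65, adjusted p = 0.0207, with 0.846% of all transcripts called). It was not called by the test of each transcript against the rest (edgeR adjusted p = 0.191) or by the exact permutation test (p = 0.111, adjusted p = 0.378). Male pedicels 3 and 4 held most of this signal, and the diffSpliceDGE call was lost without either of them or without male head 1, 3 or 5 (adjusted p = 0.0544 to 0.092 for AAEL024283-RN). Over 57 female-limited genes, male pedicels 3 and 4 stood at a median of 0.432% and 1.33% of the level of female heads, and the other male pedicels at 0.0638% to 1.301%. In females the AAEL024283-RN shares of pedicels all lay above those of heads (exact permutation p = 0.00794, adjusted p = 0.212), and diffSpliceDGE gave a log2 difference of 0.39 (SE 0.55, adjusted p = 1).

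**Figure D4:**
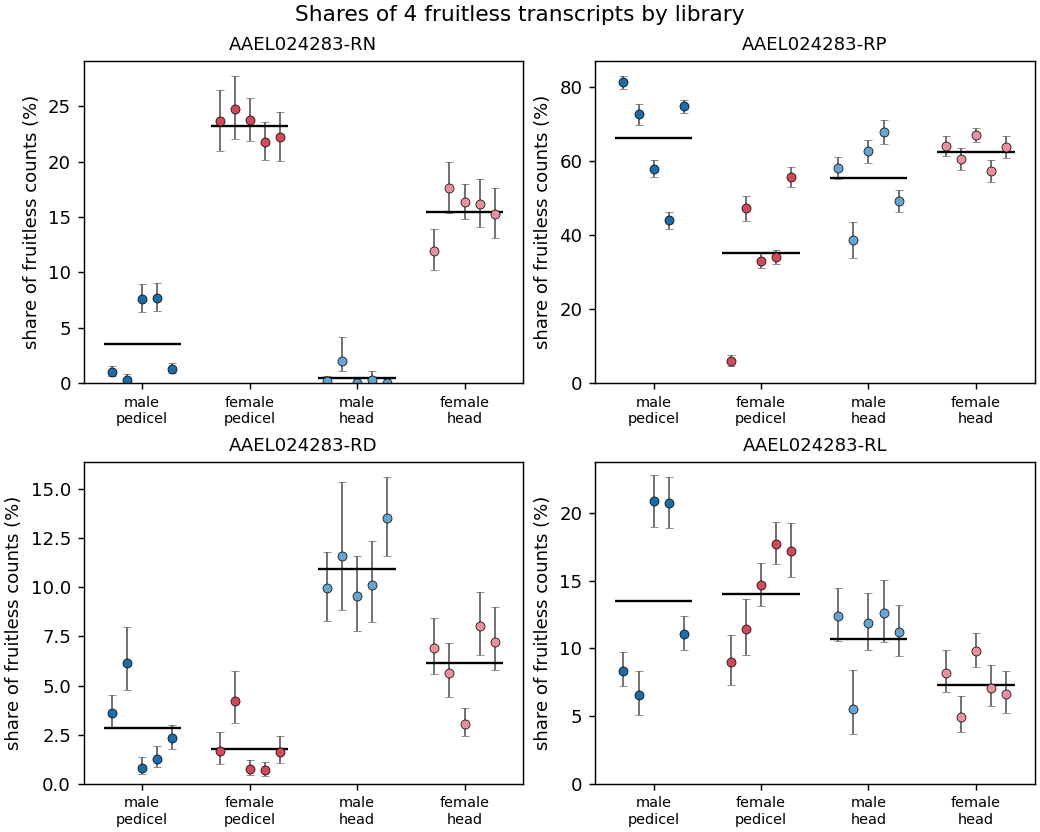
Share of fruitless counts (y axis, percent) taken by 4 transcripts in every library of the 4 groups (x axis); points are libraries, bars are Wilson 95% intervals, which cover counting error only, and horizontal lines are group means (n = 5 libraries per group). For AAEL024283-RN no male point lies above 7.69% and no female point below 11.96%, while the other 3 transcripts overlap between the sexes in the pedicel.

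AAEL024283-RP was the transcript with most fruitless counts in each group on average. It took 81.3%, 72.7%, 57.8%, 44.0% and 74.7% in male pedicels, against 6.01%, 47.2%, 33.1%, 34.0% and 55.6% in female pedicels. In heads it took 38.7% to 67.8% in males and 57.3% to 67.0% in females. Female pedicels were the group with the lowest mean, at 35.2% ± 18.8, against 62.5% ± 3.72 in female heads (± SD of 5 libraries), and these groups did not overlap (exact permutation p = 0.00794, adjusted p = 0.212). Male pedicels, at 66.1% ± 15.1, overlapped female pedicels (exact permutation p = 0.0317, adjusted p = 0.531), and neither difference was called by diffSpliceDGE (adjusted p = 1 in both).

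AAEL024283-RD went the other way from the gene total between tissues. Its level was 5.74 ± 2.04 CPM in male pedicels, against 11.4 ± 2.51 CPM in male heads. For females it was 4.31 ± 1.98 CPM in pedicels, against 8.88 ± 1.25 CPM in heads (± SD of 5 libraries). Between tissues the log2 fold was -0.99 in males (edgeR adjusted p = 0.0307, SE 0.32) and -1.06 in females (edgeR adjusted p = 0.0396, SE 0.32), while the gene total was higher in the pedicel in males. Its share was 2.83% ± 2.15 in male pedicels, against 11.0% ± 1.64 in male heads. For females it was 1.78% ± 1.44 in pedicels, against 6.16% ± 1.94 in heads (± SD of 5 libraries). In males the shares did not overlap, and the test of each transcript against the rest called the difference (log2 difference -2.41, SE 0.61, edgeR adjusted p = 0.0419, with 2.43% of all transcripts called), whereas diffSpliceDGE did not (adjusted p = 0.78). Between the sexes the shares of AAEL024283-RD parted in heads, at 9.56% to 13.5% in males and 3.04% to 8.01% in females (exact permutation p = 0.00794, adjusted p = 0.364), and overlapped in pedicels. The level calls were close to the threshold, were lost without any of several single libraries (5 in males and 8 in females) and were lost with no filter on low counts (edgeR adjusted p = 0.0533 for AAEL024283-RD in males and 0.0683 in females).

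Among the other fruitless transcripts, AAEL024283-RQ did not overlap between the sexes in pedicels, at 0.843% to 3.96% in males and 0.304% to 0.789% in females (exact permutation p = 0.00794, adjusted p = 0.366). AAEL024283-RH did not overlap in heads, at 1.04% to 2.69% in males and 0.884% to 0.964% in females (exact permutation p = 0.00794, adjusted p = 0.364). Neither was called by either edgeR usage test. Both were picked from the 18 member transcripts tested. Of these, 4 in the pedicel and 7 in the head had an unadjusted permutation p under 0.05 between the sexes. AAEL024283-RL took 13.5% ± 6.83 of fruitless counts in male and 14.0% ± 3.74 in female pedicels. Its head shares were 10.7% ± 2.95 in males and 7.32% ± 1.82 in females (± SD of 5 libraries). AAEL024283-RM took 0.289% to 51.8% in female pedicels alone, a range wider than any difference between its group means. At the transcript level 1 of the 19 member transcripts tested was called between the sexes in the pedicel (14.7% of all transcripts called) and 2 in the head (2.55%). Between tissues 2 of 19 were called in males (25.8%) and 4 in females (12.7%), and for the interaction edgeR called 0 (1.89%), with 3 at an unadjusted p under 0.05. The 2 called in the head were AAEL024283-RN and AAEL022912-RB.

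The doublesex transcripts were assigned unevenly from library to library. Of its 10 transcripts 6 passed the filter on low counts. AAEL009114-RC took 66.9%, 36.1%, 92.3%, 94.1% and 38.6% of doublesex counts in male pedicels, against 2.18%, 21.3%, 56.3%, 63.8% and 31.2% in female pedicels. In heads it took 65.2%, 0%, 62.4%, 35.1% and 35.8% in males, against 27.5% in female head 1 and 0% to 0.44% in the other 4 females. The mean was higher in males than in females in both tissues, with overlap in both.

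The exact permutation test of AAEL009114-RC shares gave p = 0.103 in the pedicel (adjusted p = 0.685) and p = 0.0317 in the head (adjusted p = 0.511). Neither edgeR usage test called it (diffSpliceDGE adjusted p = 1 in the pedicel and 0.545 in the head). Without female head 1, the one female head with a high share, diffSpliceDGE called it in the head (log2 difference 5.21, adjusted p = 0.0133) and between female tissues (adjusted p = 0.0133). As a level, AAEL009114-RC was 52.2 ± 48.8 CPM in female pedicels, against 1.15 ± 2.50 CPM in female heads (± SD of 5 libraries), a log2 fold of 5.47 that was called (edgeR adjusted p = 0.0306, SE 1.59). That call was lost in 7 of its 16 alternatives: a fit of the female libraries alone (edgeR adjusted p = 0.0771) and those without female pedicel 3 or 4 or female head 2, 3, 4 or 5 (0.0569 to 0.07).

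AAEL009114-RG showed the reverse pattern in heads. It took 12.6%, 0.41%, 0%, 19.4% and 3.59% of doublesex counts in male heads, against 66.1%, 37.4%, 36.5%, 55.8% and 42.0% in female heads. The head groups did not overlap, and the exact permutation test gave p = 0.00794 (adjusted p = 0.364). In pedicels the mean share was 6.91% ± 15.1 in males and 15.6% ± 13.6 in females (± SD of 5 libraries), with overlap, and male pedicel 2 alone held 33.9% where the other males held at most 0.69%.

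Its level was 0.623 ± 1.29 CPM in male and 11.4 ± 6.57 CPM in female pedicels. In heads it was 0.548 ± 0.627 CPM in males and 9.36 ± 3.38 CPM in females (± SD of 5 libraries). The log2 fold of AAEL009114-RG, male over female, was -4.06 in the pedicel (edgeR adjusted p = 0.0671, SE 1.43) and -4.04 in the head (edgeR adjusted p = 0.211, SE 1.43), and neither was called. DESeq2 called both (adjusted p = 0.0118 in the pedicel and 0.0400 in the head). Without male pedicel 2 the pedicel fold was -7.02 and was called (edgeR adjusted p = 0.00462), as it was without female pedicel 3 (-4.37, edgeR adjusted p = 0.0324). Female pedicel 3 was the single female library at 0 for this transcript.

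**Figure D5:**
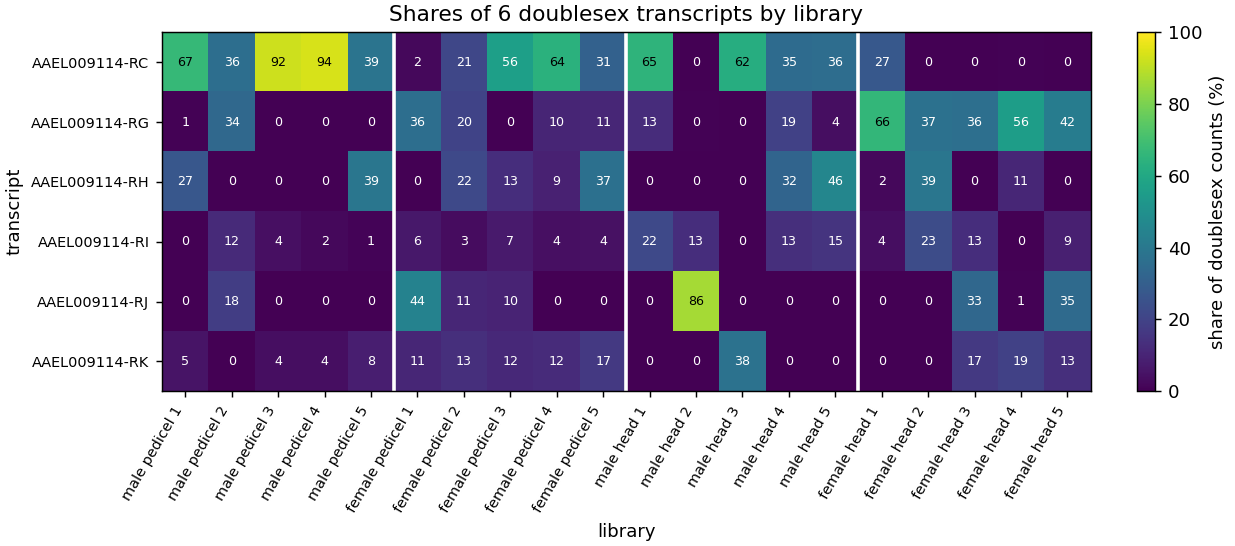
Heat map of the share of doublesex counts (colour and printed values, percent) taken by the 6 transcripts that passed the filter (rows) in each of the 20 libraries (columns), with white lines between groups. AAEL009114-RC leads in 7 of the 10 male libraries and in 2 of the 5 female pedicels, AAEL009114-RG is the leading transcript in 4 of the 5 female heads, and libraries of 1 group differ widely from each other.

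Of the other doublesex transcripts, AAEL009114-RK took 4.204% ± 3.03 of the counts in male pedicels and 12.9% ± 2.25 in female pedicels (± SD of 5 libraries), without overlap (exact permutation p = 0.00794, adjusted p = 0.366). No edgeR usage test called it. AAEL009114-RJ took 86.5% in male head 2, a library with 25 doublesex counts, and 0% in the other 4 male heads. AAEL009114-RH ranged from 0% to 45.7% within male heads. Such swings within a group exceed the counting error shown by the Wilson intervals, which for AAEL009114-RJ in male head 2 ran from 70.0% to 95.8%.

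The genes most like each member over all libraries were found by Pearson's correlation of log2 CPM over the 20 libraries, which share tissue and sex differences with each other. The nearest gene to doublesex was fruitless (r = 0.92), and the nearest to fruitless was AAEL025193 (r = 0.92). For both members the second nearest gene also had r = 0.92, so these ranks are near ties and single out no pair of genes. The nearest gene to Nix was AAEL022114 (r = 0.97), with 4.44 ± 1.07 CPM in male and 0.276 ± 0.411 CPM in female pedicels. Its head levels were 2.80 ± 0.82 CPM in males and 0.0258 ± 0.0577 CPM in females (± SD of 5 libraries). The nearest to myo-sex was AAEL003568 (r = 0.83), with 2.24 ± 1.52 CPM in male and 0.611 ± 0.893 CPM in female pedicels. Its head levels were 1.03 ± 0.307 CPM in males and 0.114 ± 0.161 CPM in females. Both were low in every group. These likenesses describe the 20 libraries and carry no test.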

How the data were processed

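RNA sequencing gave 20 libraries in 4 groups of 5. The submitters' processing notes list FastQC, HISAT2 and featureCounts. Versions, genome build, annotation and the origin of fractional values were not given in the sources used here. Values in the deposited table are estimated counts of transcripts without scaling, and 54.9% to 61.9% of a library's values are whole (within 1e-06). Each column was assigned by the description of its sample. No 2 libraries of a group agreed within sampling noise (lowest chi-square per degree of freedom 5.28).

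Estimated counts were summed per gene ID and rounded. After edgeR's filterByExpr, 11381 genes were tested and 8423 were not, and 19782 transcripts were tested for level and 11704, of 3428 genes, for usage. All libraries entered 1 quasi-likelihood fit with a mean per group (edgeR 4.0.16, R 4.3.3, robust glmQLFit and glmQLFTest). TMM factors ran from 0.49 to 1.31, and those of the gene table were used for transcripts too. The 5 comparisons were sex in each tissue, tissue in each sex and their interaction. Benjamini-Hochberg adjustment covered all features of a comparison. The SE was obtained from each fold and its F statistic, as the size of the fold over the root of F. Transcript usage was tested with diffSpliceDGE, and with a two-sided exact permutation test of shares over the 252 splits of 5 against 5. A test of each transcript against the rest of its gene, with a spread of its own, was chosen after seeing the data. The scripts were tested on simulated data. Shares needed at least 10 counts of the gene in a library and carry Wilson 95% intervals. Intervals and the floor of 3 counts cover counting error only. With these totals, genes at a few CPM rest on few counts in a library.

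The text names all members and, for each, the gene ID with the highest Pearson correlation of log2 CPM (prior count 2). Head transcripts are the 50 genes with at least 50 CPM in every head and a male over female log2 fold of size under 0.5 there that were lowest in any pedicel. Male-limited and female-limited genes had at least 5 CPM and a 16-fold difference in heads. Members and lists were chosen with earlier results of these data known. Of the IDs, 0 matched the RefSeq table of names, so other pathway genes, cell type markers, sequences and genome positions are not analysed here. The labels do not say that a number pairs libraries, so numbers were not taken to pair them. Deviations from the group mean of libraries with the same number correlated at 0.071 to 0.379 between the sexes in the pedicel and 0.018 to 0.316 in the head. Between tissues the range was 0.012 to 0.32 in males and -0.025 to 0.34 in females. These correlations were not set against libraries of different numbers, so they do not settle whether numbers pair libraries.

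Alternatives were relative log expression (RLE) factors, no filter on low counts, the replicate number as a block, DESeq2 1.42.0, fits of only the groups compared, other minimum counts and pooled counts for shares, and leaving out each library. Leaving out female pedicel 2 and male pedicel 2 together was chosen after seeing the data.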

Additional observations from a re-analysis of the deposited data

Results flagged for a closer look

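Totals and transcript shares of the members were examined in 72 groups of 4 or 5 libraries, and in 15 of them 1 library stood apart from the rest by Dixon's test at the 95% level. Chance gives about 1 in 20 groups where groups are independent and values are spread normally. Shares of 1 gene depend on each other, so these groups do not meet that, and the 15 are not read as an excess.

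Of the gene totals, myo-sex stood at 45.67 CPM in male pedicel 3, against 3.039 to 14.35 CPM in the other male pedicels. It stood at 16.36 CPM in female pedicel 2, against 1.618 to 3.316 CPM in the other females. Fruitless stood at 242.6 CPM in female head 3, and the remaining female heads had 128.6 to 139.9 CPM.

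Of the doublesex shares, AAEL009114-RC took 27.46% in female head 1 and 0% to 0.44% in the other female heads. AAEL009114-RG took 33.88% in male pedicel 2 and 0% to 0.69% in the other male pedicels. AAEL009114-RH took 39.32% in female head 2 and 0% to 10.65% elsewhere in the group. AAEL009114-RJ stood apart in 3 groups. It took 18.1% in male pedicel 2 (others 0% to 0.06%), 44.27% in female pedicel 1 (others 0% to 10.92%) and 86.45% in male head 2 (others 0%). AAEL009114-RK took 37.56% in male head 3 and 0% in the other male heads.

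Of the myo-sex shares, AAEL021838-RA took 10% in female head 2 and 0% in the other female heads with at least 10 counts. That share is 1 of 10 counts. Female head 3, left out with 9 myo-sex counts, also had 1 count of AAEL021838-RA. AAEL021838-RB, its complement, took 90% in female head 2 and 100% in the others, from the same counts, and is no separate result. Of the fruitless shares, AAEL024283-RD took 4.21% in female pedicel 2 and 0.68% to 1.65% in the other females. In male head 2, AAEL024283-RL took 5.51% (others 11.2% to 12.62%) and AAEL024283-RN took 2.01% (others 0% to 0.31%). The libraries numbered 2 of all 4 groups appear more than once in this list.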

How the results depend on the processing

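Of 351 alternative values of the members' gene totals, 306 kept direction and side of the threshold, 13 lost the call, 22 gained one and 10 changed sign. Of 336 transcript levels these were 287, 35, 13 and 1, and of 243 usage values 229, 11, 3 and 0. Of 446 alternative shares 444 moved by less than the spread between replicates, and of 268 counts of calls 206 stayed within 1.5 times. Leaving out 1 library cannot move a mean share by as much as that spread. The count of shares is therefore no measure of stability. AAEL009114-RJ in male heads fell from 17.3% to 1.31e-05% without 1 library and still counted as unmoved. Where a call changed, the cause was not tested. For the interaction, fits of the groups compared and permutations were not run. Counting depth limits the Nix values of females, which rest on 22 counts in pedicels and 14 in heads, and the shares of low transcripts.

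The replicate block left every call of a member's gene total as it was except 2: AAEL009114 was called between the sexes in the head (log2 fold -1.42) and AAEL024283 between female tissues (0.89). Libraries with the same number correlated at 0.071 to 0.379 between the sexes in the pedicel (4 of 5 pairs over 0.1), 0.018 to 0.316 in the head (4), 0.012 to 0.32 between male tissues (3) and -0.025 to 0.34 between female tissues (2). Over all genes, more gene totals were called with the block: 5047 against 4504 for sex in the pedicel and 1208 against 894 in the head. Between tissues these were 6254 against 5799 in males and 4565 against 4028 in females, and for the interaction 1990 against 1352. With the block, usage calls numbered 10 against 22 for sex in the pedicel, 7 against 12 in the head, 21 against 34 between female tissues and 5 against 15 for the interaction. The block gained AAEL021838-RA between the sexes in the head (6.44, edgeR adjusted p = 0.0287). It lost AAEL021838-RA (0.0606), AAEL022912-RB (0.0630) and AAEL024283-RD (0.0543) between female tissues, and the usage of AAEL024283-RN between male tissues (0.134).

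RLE factors ended the AAEL009114 call in the pedicel (-1.22), as did no filter (-1.26) and the pedicel libraries alone (-1.26). With no filter 221 transcript levels, against 373, and 28 usages, against 15, were called for the interaction. DESeq2 called AAEL009114 (-1.41) and AAEL021838 (1.97) between the sexes in the head, and AAEL021838 (1.84) and AAEL024283 (1.00) between female tissues. The fits of only the groups compared called the same 4, at -1.45, 1.92, 1.87 and 1.05. DESeq2 called 954 transcript levels between the sexes in the head, against 505, 3883 between female tissues, against 2517, and 1332 for the interaction, against 373. Fits of only the groups compared called 1752 transcript levels (against 2910), 11 usages for sex in the pedicel and 17 between female tissues, and 1497 gene totals for sex in the head (against 894). The exact permutation test of shares called 0 usages in each of 4 comparisons, with 1012, 1032, 2411 and 1501 at an unadjusted p under 0.05. With 5 against 5 libraries it can call only where a large part of all transcripts reach its smallest p. Its lack of calls is therefore no measure of stability. Testing each transcript against the rest called 34, 1, 284, 17 and 2 in the 5 comparisons, against 22, 12, 99, 34 and 15.

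Without female pedicel 2 and male pedicel 2, a choice made after seeing the data, AAEL021838 was called between the sexes in the pedicel (2.88) and between male tissues (1.59), and its interaction turned to 0.92. AAEL022912 lost its call between female tissues (1.16) and AAEL024283 gained one (1.19). The interaction was called for 2889 gene totals, against 1352, for 1511 transcript levels and for 33 usages. Usage calls were 49 for sex in the pedicel and 153 between male tissues. With at least 30 counts for a share, female pedicel 2 alone was left in its group, at 92.5% for AAEL021838-RA and 7.53% for AAEL021838-RB.

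Leaving out each library in turn gave, for sex in the pedicel, -1.65 to -0.99 for AAEL009114, 0.34 to 2.65 for AAEL021838, -0.56 to 0.05 for AAEL024283 and -0.0898 to 5.65 for AAEL021838-RA, whose sign turned without male pedicel 3. AAEL024283 changed sign without male pedicel 2 (0.0451) and without female pedicel 4 (0.0420). Between male tissues AAEL021838 ran from 0.23 to 1.64. Between female tissues AAEL021838 ran from 0.68 to 2.08, AAEL022912 from 1.04 to 1.62 and AAEL024283 from 0.78 to 1.25. The interaction ran from -0.23 to 0.42 for AAEL009114, -1.62 to 0.69 for AAEL021838 and -0.0023 to 0.60 for AAEL024283, and was called for 912 to 2694 gene totals and 204 to 1381 transcript levels. Usage calls ran from 13 to 45 and 7 to 16 for sex in the pedicel and head, 57 to 131 and 14 to 51 for tissue in males and females, and 2 to 26 for the interaction.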
